A study of Mus musculus with 12 samples.

Results

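The Hoxa cluster genes Hoxa2, Hoxa3, Hoxa4, Hoxa5, Hoxa6, Hoxa7, Hoxa9 and Hoxa10 were followed through neuronal differentiation of P19 cells. A read was assigned to one of these 8 genes when its poly(A) tail call passed quality control, its transcript was in the mRNA class and its gene was on the list. This gave 1177 reads of 4274320 kept reads in the series, and the 1177 reads fell on 5 of the 8 genes, out of 14042 genes with a kept read. P19 is a mouse embryonal carcinoma line, here wild type in all groups, kept in serum-containing medium at day 0 (D0). For the other groups, cells were seeded in NDiff 227 medium with 500 nM retinoic acid and collected after 2 (D2), 4 (D4) or 6 days (D6). Each day had 3 libraries of nanopore direct RNA sequencing, in which each read is a single poly(A)-selected RNA molecule with its tail. The cultures received the new medium and retinoic acid together, so their parts in any change from D0 cannot be told apart.

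Hox genes encode homeodomain transcription factors that give cells their position along the head-to-tail axis. They lie in clusters, and during development the genes at the Hoxa2 side of the Hoxa cluster are turned on earlier and further forward than those at the Hoxa13 end. Retinoic acid binds nuclear receptors that act at response elements in the cluster, and it is a classic inducer of Hox genes in embryonal carcinoma cells. Hoxa2 patterns the hindbrain and the second pharyngeal arch, and Hoxa3 is needed for the thymus and parathyroid. Hoxa4, Hoxa5, Hoxa6 and Hoxa7 act in the neck and trunk, and Hoxa5 also acts in the lung. Hoxa9 and Hoxa10 act further back, and both are also known from blood progenitors.

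All 8 genes are transcribed from the minus strand of chromosome 6 (mm10), so the order Hoxa2 to Hoxa10 runs along increasing coordinates. The transcripts that carried most reads were Hoxa2 at chr6:52162417-52164831, Hoxa3 at chr6:52169062-52213115, Hoxa4 at chr6:52189671-52191753 and Hoxa5 at chr6:52201754-52204587. The long Hoxa3 transcript has Hoxa4, Hoxa5 and Hoxa6 (chr6:52206288-52208722) within its span. Hoxa7 (chr6:52214491-52220393), Hoxa9 (chr6:52223100-52227370) and Hoxa10 (chr6:52231197-52234939) follow.

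The promoters of 3 members are shown because these genes mark the range of the response: Hoxa2 showed no called change after D2, Hoxa5 reached the highest level, and Hoxa9 had no read. The windows run from 250 bases before to 50 bases after the RefSeq start (GRCm38.p6, minus strand). Their positions are chr6:52164782-52165081 for Hoxa2, chr6:52204538-52204837 for Hoxa5 and chr6:52227321-52227620 for Hoxa9. Capitals mark matches on either strand. The motifs searched were the half-site of retinoic acid receptors, AGGTCA, the TATA box in the form TATAAA, the CCAAT box, and the GC box in the form GGGCGG. The last was TGATNNAT, a site of the type bound by PBX and HOX proteins together.
Hoxa2 promoter: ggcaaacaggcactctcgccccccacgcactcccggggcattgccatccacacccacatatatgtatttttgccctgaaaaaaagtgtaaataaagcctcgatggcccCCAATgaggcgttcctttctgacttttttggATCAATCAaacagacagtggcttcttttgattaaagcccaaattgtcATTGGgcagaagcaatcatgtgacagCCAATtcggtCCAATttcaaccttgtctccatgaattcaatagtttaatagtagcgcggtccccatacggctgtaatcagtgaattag
Hoxa5 promoter: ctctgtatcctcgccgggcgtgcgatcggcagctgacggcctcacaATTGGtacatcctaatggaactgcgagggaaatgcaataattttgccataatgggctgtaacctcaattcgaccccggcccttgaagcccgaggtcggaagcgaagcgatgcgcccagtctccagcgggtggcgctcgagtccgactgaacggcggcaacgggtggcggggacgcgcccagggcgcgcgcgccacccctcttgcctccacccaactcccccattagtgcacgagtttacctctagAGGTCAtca
Hoxa9 promoter: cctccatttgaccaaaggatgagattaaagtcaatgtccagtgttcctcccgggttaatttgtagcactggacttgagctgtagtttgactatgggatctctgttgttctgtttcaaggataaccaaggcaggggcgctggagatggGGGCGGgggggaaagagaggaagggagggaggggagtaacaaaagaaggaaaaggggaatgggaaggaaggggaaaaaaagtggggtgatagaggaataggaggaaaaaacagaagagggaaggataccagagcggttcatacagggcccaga
The Hoxa2 window held 4 matches to CCAAT and 1 to TGATNNAT, motifs found in 37.4% and 8.85% of all 32851 RefSeq mouse promoters of this length. The Hoxa5 window held 1 match to AGGTCA, present in 16.3% of promoters, and 1 to CCAAT. The Hoxa9 window held 1 match to GGGCGG, present in 35.7% of promoters. Among all the listed windows, 1 TATAAA match was found, in the second of the Hoxa10 promoters, against 13.6% of promoters. The Hoxa5 window had 29 CpG dinucleotides and stood at percentile 87.1 of all promoters, Hoxa6 had 26, Hoxa2 had 9 and Hoxa9 had 4, beside a median of 7. RefSeq promoters were at hand for 7 of the 8 members, Hoxa4 being the other. A match is a run of letters and not a measured binding site.

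The libraries held 120326 to 613756 kept reads, so the share of 1 read differed widely between libraries, and D2 was the shallowest day. Levels are given as CPM, reads per 1000000 kept reads after trimmed-mean scaling. A library with 3 reads of a gene, the level used as a floor, corresponds to 5.56 to 23.5 CPM. Floors cover counting error only, whereas each ± is an SD between 3 libraries or, for fold changes, an SE of the fit. The reads came from 13 sequencing runs, each holding libraries of 1 day only, so day and run cannot be told apart. The labels number the replicates without saying what separates them, and p-values measure the spread between these libraries. Summed markers of undifferentiated cells spanned 1908-2227 CPM in the D0 libraries, 125-193 CPM at D2, 148-159 CPM at D4 and 176-220 CPM at D6, where Sox2, which neural progenitors also express, made up most of the sum (199 ± 23.9 CPM). The summed neuron markers spanned 524-556 CPM at D0, were lower at D2 with 290-498 CPM, and spanned 1249-1493 CPM at D4 and 2434-2646 CPM at D6. The summed neural progenitor markers Pax6, Sox1 and Nes spanned 50.4-77.8 CPM at D0, 235-345 CPM at D2, 232-241 CPM at D4 and 145-212 CPM at D6. All 3 were called higher than D0 at each later day, as were most of the Hoxa genes with reads, and their part in the Hoxa values was not tested. Of the 4 endoderm markers only Gata6 had reads, with a summed level of at most 7.84 CPM in any library, and the mesoderm markers T and Mesp1 had none. In bulk RNA, fewer cells of a type and less RNA per cell cannot be told apart.

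At D0 no read of any of the 8 genes was kept among 1582131 reads, which allows a share of up to 0.00019% for each gene. At D2 the genes together held 69 reads, or 118 ± 37.9 CPM (SD, n = 3). They held 407 reads and 375 ± 30.2 CPM at D4, and 701 reads and 634 ± 91.4 CPM at D6. The lowest D4 library (349 CPM) lay above the highest D2 library (154 CPM), and the lowest D6 library (554 CPM) above the highest D4 library (408 CPM). By D6 the genes made up 0.0676% of kept reads.

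**Figure D1:**
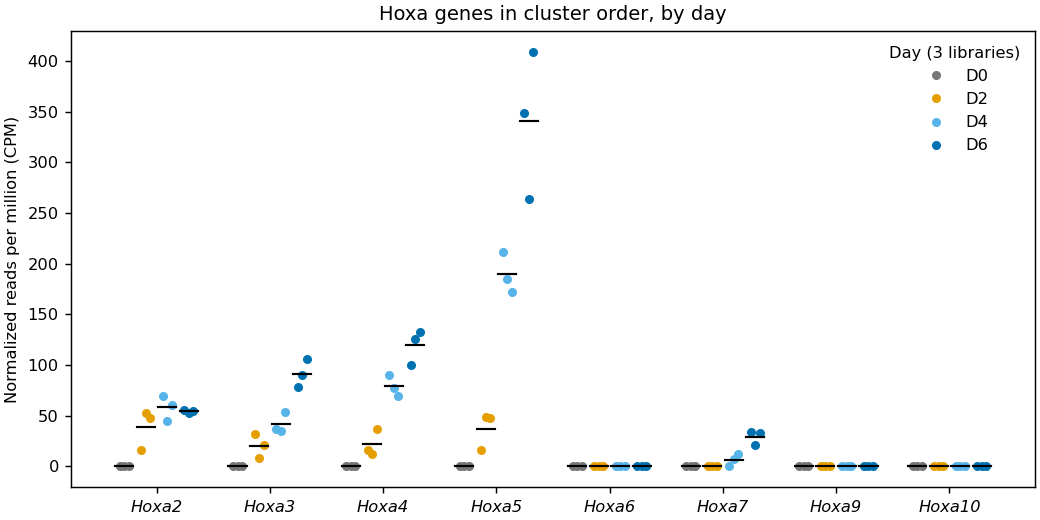
CPM of each Hoxa gene (vertical axis) in the 12 libraries, with genes in cluster order and 3 points a day; the black line is the mean of the day. Hoxa5 reached 264 to 409 CPM at D6, Hoxa2 stayed between 44.5 and 69.4 CPM at D4 and D6, and Hoxa6, Hoxa9 and Hoxa10 stayed at 0.

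In tests of all 9309 genes with at least 30 kept reads (limma-voom, Benjamini-Hochberg adjusted p of at most 0.05), 4 members were higher at D2 than at D0, where 4.48% of all tested genes were called higher. At D4 and at D6 all 5 members with reads were higher than at D0, beside 12.6% and 19.4% of tested genes. The fifth, Hoxa7, rested at D4 on 8 reads, 7 of them inside an exon of the antisense RNA Hoxaas3, and its D4 call held in 15 of 19 alternative settings. Without reads inside exons of the other strand, 4 members were called at either day and Hoxa7 fell under the minimum of reads. All members that were tested had at least 30 reads, none of which came from D0, so passing the filter on reads already required reads after induction. From D2 to D4, 2 members rose (Hoxa4 and Hoxa5), with a background of 2.01%. From D4 to D6, 4 members rose (Hoxa3, Hoxa4, Hoxa5 and Hoxa7), with a background of 4.44%. That last count was the least stable, and it ranged from 1 to 4 when single libraries were left out. The D0 libraries are shared by the 3 comparisons with D0. Of the members' transcripts, 4 had at least 30 reads, Hoxa2-201, Hoxa3-201, Hoxa4-201 and Hoxa5-201, and all 4 were higher at D6 than at D0, beside 13.5% of the 12356 transcripts tested.

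**Figure D2:**
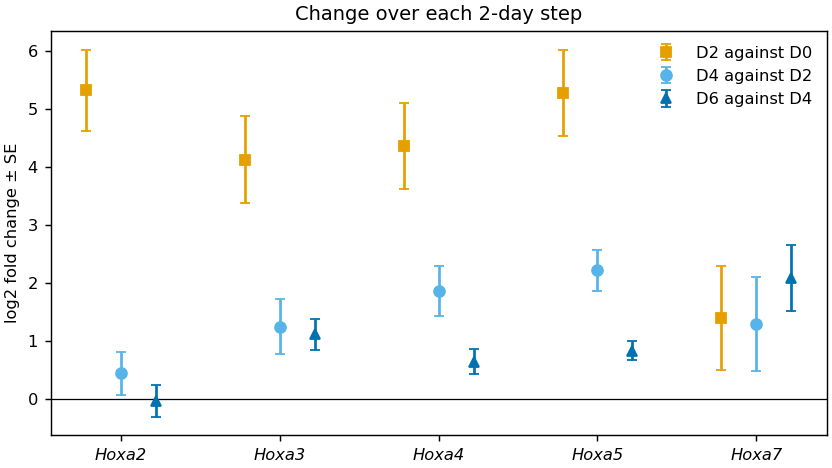
log2 fold change with its standard error (vertical axis) for the 5 Hoxa genes with reads over each 2-day step, from limma-voom. The D2 steps start from D0 libraries without reads, so their size depends on the constant added to zero counts; the Hoxa7 value for D0 to D2, 1.39, comes from libraries without a single read on either day. Hoxa2 lies near 0 from D4 to D6, at -0.04, while the other genes lie above 0.

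Hoxa2, the first member in cluster order, was called higher at D2, and neither later step was called. Its D2 libraries held 2, 13 and 9 reads, the D4 libraries 17, 19 and 26, and the D6 libraries 15, 25 and 20. In CPM, these were 15.7, 52.2 and 47.8 at D2, 69.4, 44.5 and 60.3 at D4, and 55.7, 52.4 and 54.1 at D6. The D4 libraries lay on both sides of the D6 libraries. Against D0, taken at the floor of 3 reads per library, Hoxa2 was at least 6.1-fold higher at D2 (limma-voom adjusted p = 2.37e-08) and at least 8.56-fold higher at D6 (adjusted p = 8.42e-11). From D2 to D4 its log2 fold change was 0.44 ± 0.37 (SE, adjusted p = 0.607), and from D4 to D6 it was -0.04 ± 0.27 (adjusted p = 0.952). The sign of the last value turned under other settings. It ranged from -1.35 with libraries thinned to the smallest one to 0.07 with scaling by library totals.

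The mean level of Hoxa3 was higher at each later day. Its reads numbered 4, 2 and 4 at D2. They numbered 9, 15 and 23 at D4, and 21, 43 and 39 at D6. The corresponding levels were 31.4, 8.03 and 21.2 CPM at D2, 36.7, 35.2 and 53.3 CPM at D4, and 77.9, 90.2 and 106 CPM at D6. No library of a later day fell within the range of an earlier day. Hoxa3 was at least 14.4-fold higher at D6 than at D0 (adjusted p = 1.01e-12). The D2 to D4 change of 1.24 ± 0.47 on the log2 scale was not called (adjusted p = 0.144), and the D4 to D6 change of 1.11 ± 0.27 was (adjusted p = 0.00312). The latter call held in 21 of 24 alternative settings. It was lost with limma-trend (adjusted p = 0.319), with every library thinned to the smallest (adjusted p = 0.386) and without D4 replicate 2 (adjusted p = 0.0673).

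Hoxa4 held 2, 3 and 7 reads at D2. It held 22, 33 and 30 reads at D4, and 27, 60 and 49 at D6. Levels were 15.7, 12 and 37.2 CPM at D2, 89.8, 77.3 and 69.6 CPM at D4, and 100, 126 and 133 CPM at D6, again with no overlap between days. The gene was at least 12.5-fold higher at D4 and at least 18.9-fold higher at D6 than at D0 (adjusted p = 5.62e-12 and 6.47e-14). Most of the increase after D2 came by D4, with a log2 fold change of 1.86 ± 0.43 (adjusted p = 0.00355), a call that was lost without D2 replicate 2 (1.36, adjusted p = 0.184) and with thinning (1.47, adjusted p = 0.116). The D4 to D6 change of 0.64 ± 0.21 passed narrowly (adjusted p = 0.0465) and remained called in 4 of 24 alternative settings, with adjusted p between 0.0161 and 0.664.

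Hoxa5 had the largest fold of the 5 genes at D4 and at D6 against D0. Its D2 libraries held 2, 12 and 9 reads. The D4 libraries held 52, 79 and 74 reads and the D6 libraries 94, 126 and 151. Levels were 15.7, 48.2 and 47.8 CPM at D2, 212, 185 and 172 CPM at D4, and 349, 264 and 409 CPM at D6. The D4 libraries lay well above the D2 libraries, and the lowest D6 library lay above the highest D4 library. Hoxa5 was at least 53.9-fold higher at D6 than at D0 (adjusted p = 1.82e-16). It rose by 2.21 ± 0.36 on the log2 scale from D2 to D4 (adjusted p = 1.18e-05) and by 0.83 ± 0.16 from D4 to D6 (adjusted p = 0.000173). The first of these steps was called in all 24 alternative settings and the second in 23 of them, the exception being limma-trend (adjusted p = 0.307).

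Hoxa7 was the last of the members with reads to be detected, with no read at D0 or D2. Its D4 mean of 6.21 CPM lay under the mean D2 floor of 17.2 CPM per library, so a similar level at D2 could have been missed. At D4 its libraries held 0, 3 and 5 reads, and at D6 they held 9, 10 and 12 reads. Levels were 0, 7.03 and 11.6 CPM at D4 and 33.4, 21 and 32.5 CPM at D6, without overlap. Hoxa7 was at least 4.58-fold higher at D6 than at D0 (adjusted p = 4.06e-08), and rose by 2.08 ± 0.57 on the log2 scale from D4 to D6 (adjusted p = 0.0119). Without D4 replicate 1 this rise was 1.44 (adjusted p = 0.0941), without D4 replicate 2 it was 2.22 (adjusted p = 0.0604), and with limma-trend 2.66 (adjusted p = 0.156). These reads also have a limit of assignment, described below with the antisense RNAs.

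Hoxa6, Hoxa9 and Hoxa10 had no kept read in any library. At D6, with 1036886 kept reads, this allows a share of up to 0.000289% for each of them. Without the filter on tail calls, 4 alignments to Hoxa6, 2 to Hoxa9 and none to Hoxa10 were present in the data. These genes were thus not detected among reads with a passing tail call at this depth, and the statement does not extend to reads that the filter removed.

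Divided by transcript length, the order at D2 was Hoxa2 (21.7 ± 11.2 CPM per kb), Hoxa5 (19.8 ± 9.93), Hoxa4 (13.6 ± 8.52) and Hoxa3 (7.8 ± 4.52), and neighbours in this order overlapped in their libraries. At D6 the order was Hoxa5 (181 ± 38.7 CPM per kb), Hoxa4 (75 ± 10.7), Hoxa3 (35.2 ± 5.34), Hoxa2 (30.5 ± 0.913) and Hoxa7 (14.3 ± 3.41). At that day Hoxa3 and Hoxa2 overlapped, and the other neighbours did not. Since a direct RNA read starts from the tail, its count need not grow with transcript length, and the order was the same in CPM. The ratio of the D6 mean to the D2 mean was 1.4 for Hoxa2, 4.51 for Hoxa3, 5.53 for Hoxa4 and 9.15 for Hoxa5. The D2 means rested on 10 to 24 reads each. When single D2 or D6 libraries were left out, the ratio of Hoxa2 stayed the lowest and that of Hoxa5 the highest of the 4 genes. The order of Hoxa3 and Hoxa4 turned without D2 replicate 1, at 6.23 and 4.86, and without D2 replicate 3 the ratio of Hoxa4 was 8.63.

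The make-up of the Hoxa reads was compared as shares within each library. Hoxa2 took 20 to 43.3% of them in the D2 libraries, 12.8 to 17% at D4 and 7.38 to 9.47% at D6. Hoxa5 took 20 to 40% at D2, 46.8 to 53% at D4 and 47.7 to 56.6% at D6. For both genes the D2 and D6 libraries did not overlap. The 2-sided exact permutation test gave p = 0.10 for each, the smallest value that 3 against 3 libraries can reach, and 0.17 after adjustment over the 5 genes. Hoxa3 and Hoxa4 held 14.4 ± 1.82% and 19 ± 3.33% at D6 (SD, n = 3), with p = 0.90 against D2 in the exact permutation test. D2 replicate 1 contributed 10 reads in all, so each of its reads counted for a large share.

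**Figure D3:**
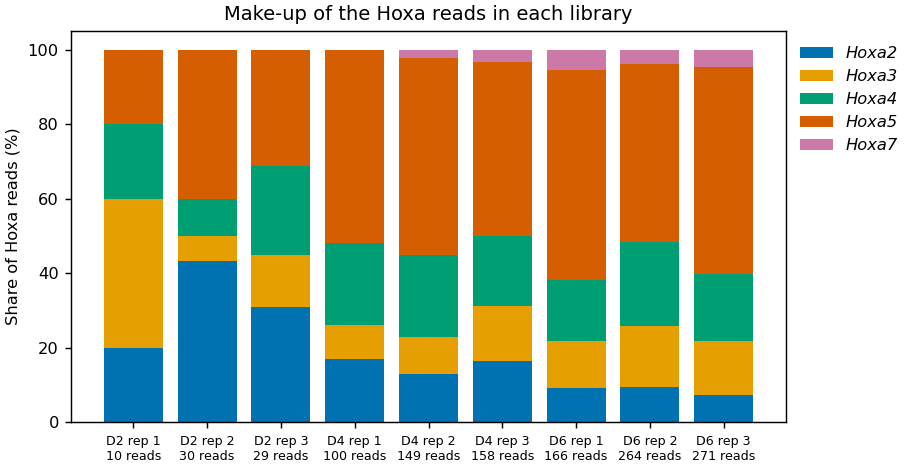
Share of the Hoxa reads (vertical axis, percent) taken by each gene in each D2, D4 and D6 library, with the number of Hoxa reads under each bar. The Hoxa2 part is 20-43.3% at D2 and 7.38-9.47% at D6, and the Hoxa5 part is 47.7-56.6% at D6.

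The 3′ ends of the alignments were taken as the places where each RNA was cleaved and polyadenylated. Reads were aligned to transcripts, so no alignment can run past the annotated end. RNAs that ended further downstream would also be placed there. This limit covers the Hoxa2 outer site, the Hoxa3 main site and the Hoxa4 reads at the annotated end. Sequences at the ends of Hoxa2 are shown because its alignments ended at 3 places, and those of Hoxa5, Hoxa4 and Hoxa3 for comparison. Each is from the GENCODE transcript, minus strand of mm10. Capitals mark the poly(A) signal hexamer (AATAAA or ATTAAA) found within 50 bases before the most frequent read end. Where ends were tied, the one furthest downstream was used, as at the Hoxa2 inner site and the Hoxa5 site without a hexamer. Each stretch stops at most 16 bases after the hexamer. Read ends lay outside the stretch at the Hoxa2 inner site (26 bases after the hexamer), the Hoxa4 site (24) and the Hoxa3 inner site (17).
Hoxa2 inner site, chr6:52162860-52162889: ctaagaacATTAAAgcaaaacaaagcttca
Hoxa2 main site, chr6:52162511-52162540: tttggtagAATAAAttctcctttgctataa
Hoxa2 outer site, chr6:52162417-52162439: acatggtaAATAAAagtctggtc
Hoxa3 inner site, chr6:52169333-52169362: gtatttatATTAAAgaaattctgtaccctg
Hoxa3 main site, chr6:52169062-52169091: acaaaaaaAATAAAgtttttattctgatta
Hoxa4 site, chr6:52189690-52189719: gtgctaagAATAAActtcagtttataagac
Hoxa5 main site, chr6:52201785-52201814: caaaacaaAATAAActttctattgtaagtt
Of the 146 Hoxa2 reads, 88 (60.3%) ended at the main site, 94 bases before the annotated end. Another 33 (22.6%) ended at the annotated end and 22 (15.1%) at the inner site, 433 bases before it. The outer site held 2 of 24 reads at D2, 16 of 62 at D4 and 15 of 60 at D6. It was unused in D2 replicates 1 and 2, which had few reads, and took 20 to 29.4% of the reads in the D4 and D6 libraries. For Hoxa3, 130 of 149 reads (87.2%) ended at the annotated end and 14 (9.4%) ended 270 bases earlier. Hoxa4 had a single site with 232 of 233 reads. Hoxa5 reads ended 34 bases before the annotated end in 568 of 599 cases (94.8%), and 13 reads ended 568 bases before it, where neither hexamer was found.

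The first aligned bases of the reads were spread along the transcripts. They are positions on the spliced transcript, so any part of a read that the transcript lacks, such as intron sequence, is not seen. Few reads reached the annotated start codon: 18 of 146 for Hoxa2 (12.3%), 1 of 149 for Hoxa3, 4 of 233 for Hoxa4 (1.72%) and 58 of 599 for Hoxa5 (9.68%). The median aligned length was 1286 bases for Hoxa2, 1012 for Hoxa3, 1004 for Hoxa4 and 1160 for Hoxa5. Direct RNA reads run from the tail toward the 5′ end and can stop early, so these counts are a lower limit for RNAs that reach the start codon. Hoxa4 showed a sharp step: the alignments of 64 of its 233 reads (27.5%) began within 5 bases of the first base of exon 2, the last exon. Whether the RNAs themselves ended there was not tested. That share was 20.4 to 40.9% in the D4 and D6 libraries, which overlapped between the days. At the same place in the other genes, the shares were 9.59% for Hoxa2, 5.01% for Hoxa5 and 2.68% for Hoxa3. For Hoxa5, the share was 6.76 to 11.5% in the D4 libraries and 1.99 to 3.19% in the D6 libraries. This rests on 18 and 9 reads, was noticed in the data and was not tested.

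**Figure D4:**
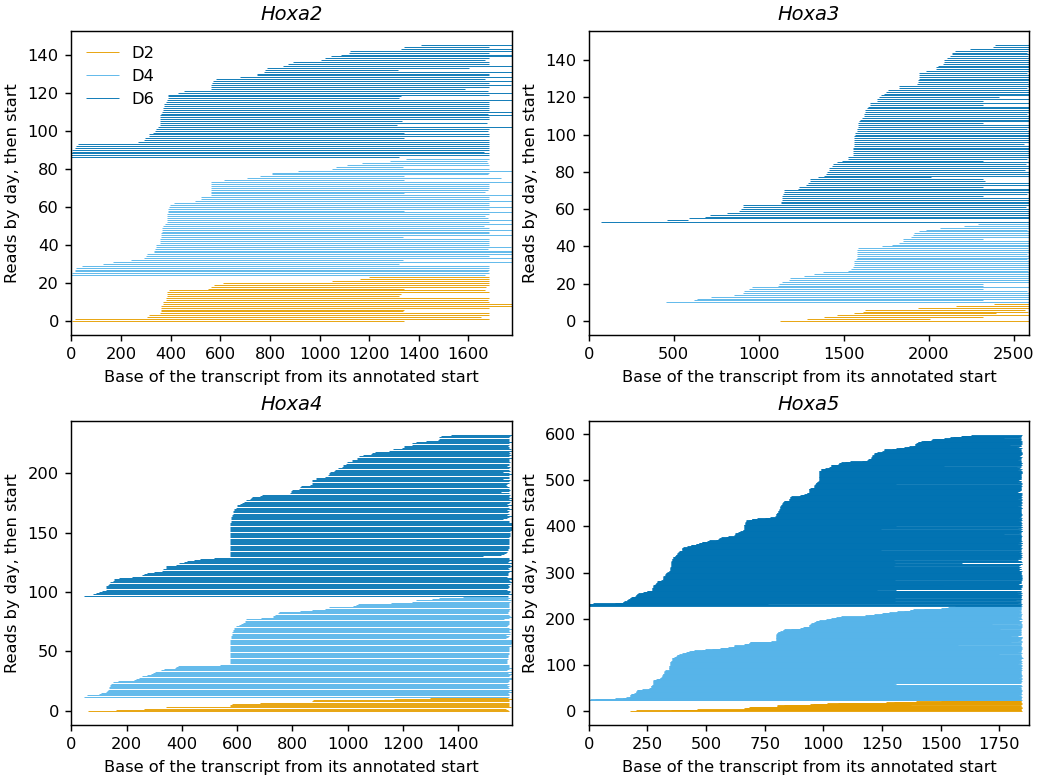
Aligned extent of each read (1 line per read, ordered by day and then by start) along the main transcript of Hoxa2, Hoxa3, Hoxa4 and Hoxa5, in bases from the annotated start. The vertical step in the Hoxa4 panel is the start of exon 2, where 64 of 233 alignments began, and the Hoxa2 alignments end at 3 places.

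Poly(A) tails of the Hoxa mRNAs were long or of ordinary length. Over D4 and D6, the median tail was 112 nt for Hoxa2 (122 reads), 157 nt for Hoxa3 (150 reads), 129 nt for Hoxa4 (221 reads) and 114 nt for Hoxa5 (576 reads). Among 7553 genes with at least 30 reads at these days, whose median of medians was 114 nt, Hoxa3 stood at percentile 96.3 and Hoxa4 at 77.7. Hoxa2 and Hoxa5 stood near the middle, at 45.3 and 49.6. The Hoxa3 reads included 11 of the transcript Hoxa3-203 inside an exon of Hoxaas3. Of Hoxa3-201, 2 reads at D4 and 11 at D6 lay inside an exon of the antisense RNA Hoxaas2. Without strand these reads cannot be assigned, and the tails without them were not examined. The Hoxa3 median varied from 79.8 to 203 nt between the D4 and D6 libraries. It was above the median of all kept reads of the same library in 5 of 6 of them, the exception being D4 replicate 2. Tails under 30 nt made up 4.67% of reads for Hoxa3, 5.43% for Hoxa4, 3.82% for Hoxa5 and 3.28% for Hoxa2, beside 3.38% of all kept reads. Tails over 90 nt made up 63.5 to 76% of reads for the 4 genes, beside 56.1% of all kept reads.

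Tails were compared between D4 and D6 for the 3 genes with at least 10 reads in each of these 6 libraries. The Hoxa2 library medians were 92.4, 109 and 112 nt at D4 and 112, 117 and 118 nt at D6, a difference of 11.2 nt (2-sided exact permutation test, p = 0.20). For Hoxa5 they were 95.2, 105 and 122 nt at D4 and 114, 120 and 115 nt at D6, a difference of 8.83 nt (exact permutation p = 0.40). For Hoxa4 they were 132, 132 and 127 nt at D4 and 109, 143 and 128 nt at D6, a difference of -4.05 nt (exact permutation p = 0.80). Adjusted over the 3 genes, the values were 0.60, 0.60 and 0.80, and the smallest p this design allows is 0.10. With single libraries left out, the Hoxa2 difference ran from 5.21 to 15.1 nt and the Hoxa5 difference from 2.75 to 16.1 nt. The Hoxa4 difference turned to 4.88 nt without D6 replicate 1. No difference passed the test in these genes. The medians of all kept reads were 95.2, 96.5 and 98.2 nt in the D4 libraries and 101, 103 and 102 nt in the D6 libraries, higher at D6 without overlap. The reads of the inner, main and outer Hoxa2 sites had median tails of 109, 111 and 108 nt.

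**Figure D5:**
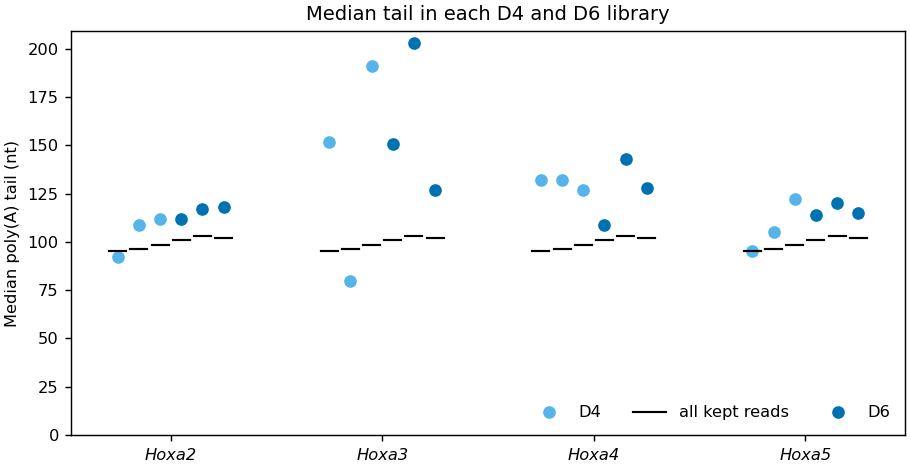
Median poly(A) tail (vertical axis, nt) of Hoxa2, Hoxa3, Hoxa4 and Hoxa5 in each D4 and D6 library (points), with the median of all kept reads of the same library (black lines). Hoxa3 spans 79.8 to 203 nt, and the lines lie between 95.2 and 103 nt, higher at D6 than at D4.

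The cluster also carries antisense RNAs on the plus strand, and the per-read table gives no strand, so reads in shared exons cannot be told apart. For Hoxa7, 26 of 39 reads (66.7%) lay inside an exon of Hoxaas3 (chr6:52213033-52215076). The alignments of 22 of the 39 began within 10 bases of the annotated 3′ end of that RNA. The 13 Hoxa7 reads outside this exon were 1 at D4 and 12 at D6, with 4, 3 and 5 reads in the D6 libraries. Without the reads in shared exons, Hoxa7 fell below the 30 reads needed for the test. The share of Hoxa7 alignments with a passing tail call was 27%, beside 77.7% of all alignments with a library. The Hoxa7 reads were divided between Hoxa7-201 (16 reads) and Hoxa7-205 (23 reads), a transcript annotated for nonsense-mediated decay, and mapping quality was under 10 for 68.8% and 91.3% of them.

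The other members were less affected. All 11 reads of Hoxa3-203, a retained-intron transcript, lay inside the Hoxaas3 exon, while 15 of 149 Hoxa3-201 reads (10.1%) lay inside an exon of Hoxaas2. Of the Hoxa4 reads, 7 of 233 lay inside an exon of Gm29430. No Hoxa2 or Hoxa5 read lay inside an exon of the other strand. Without all such reads, Hoxa3 and Hoxa5 were still called higher from D4 to D6, and the count of members called fell from 4 to 2. The Hoxa4 fold change was then 0.62 (adjusted p = 0.0585), against 0.64 (adjusted p = 0.0465) with all reads, and Hoxa7 was not tested.

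Genes of the flanks and of the far end of the cluster were looked at for comparison. Skap2, a flanking gene on the Hoxa2 side, had no read at D0 and stood at 80.4 ± 12.9 CPM at D6 (limma-voom adjusted p = 2.35e-12). Snx10, Hibadh and Tax1bp1 were tested and not called at D6 against D0 (adjusted p = 0.106, 0.111 and 0.855). Hoxa11 and Hoxa13 had no reads, and Evx1, beyond Hoxa13, had 6 reads, all at D6.

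Genes that act with or on Hox proteins were counted from lists, beside the 19.4% of all tested genes called higher at D6 than at D0. Of the 9 Hox cofactors, which bind DNA together with HOX proteins, 7 were higher at D6 than at D0 and none lower, and their median was 1.72 on the log2 scale. The highest D6 levels among the 7 were those of Pbx2 (141 ± 24.3 CPM), Pbx3 (126 ± 29.4 CPM) and Meis2 (124 ± 28.3 CPM). Of 12 tested genes of the retinoic acid pathway, 9 were higher and none lower, with a median of 3.01. The list holds 20 genes, and the filter of 30 reads left out some genes whose few reads lay mostly at D0. Among them, the receptor gene Rarg held 14 reads at D0 and 1 at D6, and Rbp4, which encodes a carrier of retinol in blood, held 11 and 1. Other genes passed the filter only through their later reads, so the count describes the tested genes alone. Crabp1 and Cyp26b1 were among the called genes with the highest D6 levels. Crabp1, which encodes a binding protein of retinoic acid, was highest at D2, with 8, 1467, 841 and 439 CPM at D0, D2, D4 and D6, and fell by 0.79 on the log2 scale from D2 to D4 and by 0.97 from D4 to D6 (adjusted p = 8.67e-07 and 1.37e-08). Its relative Crabp2 had the same order of days, with 70.4, 2164, 1124 and 204 CPM, and fell by 2.45 from D4 to D6 (adjusted p = 1.24e-22). Cyp26b1, which encodes an enzyme that breaks down retinoic acid, had no read at D0 and stood at 9.32, 172 and 400 CPM at the later days. Rarg, Rbp4, Crabp2 and Cyp26b1, and Ezh2 below, were chosen after their values were seen. Of 9 tested regulators of Hox genes, 2 were higher, Gbx2 and Bmi1, a share close to that of all tested genes, with a median of 0.18. Ezh2, the methyltransferase of Polycomb repression, was at 112 ± 10.5 CPM at D0 and 123 ± 26.2 CPM at D6 (adjusted p = 0.49).

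Of the 10 Hoxb genes listed, 8 were tested, and of the 12 Hoxc and Hoxd genes, 7. All of the tested genes were higher at D6 than at D0, but each had at most 1 read at D0, so passing the filter of 30 reads already required reads after induction. The count is therefore a description of these genes. At D6, Hoxb2 stood at 886 ± 91.9 CPM and Hoxb8 at 834 ± 71.2 CPM. Hoxb9 reached 644 ± 55.4 CPM at D6, whereas Hoxa9, its counterpart in the Hoxa cluster, had no read. Hoxb6 reached 457 ± 10.7 CPM, whereas Hoxa6 had no read.

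The genes whose pattern was most like that of the summed Hoxa members were found by the Pearson correlation of log2(CPM + 1) over the 12 libraries, among 9304 genes. They were Hoxb8 (r = 0.999), Hoxb2 (r = 0.998), Hoxb3 (r = 0.997), Hoxb5 (r = 0.996) and Nr2f1 (r = 0.996). Nr2f1 encodes an orphan nuclear receptor. All 5 genes had no read at D0, as the members did, and the libraries share their depth, which enters each value. In all, 49 genes had r of at least 0.95.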

How the data were processed

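Direct RNA libraries of P19 cells (4 days, 3 each) were analysed from the deposited per-read table. According to the study's methods, bases were called with Guppy, reads were aligned with minimap2 2.20 to mm10 transcripts (GENCODE vM17), tails were called with Nanopolish and barcodes with Deeplexicon. The authors deposited tail length in nucleotides, mapping quality as a score, barcode confidence as a fraction and alignment positions, without normalization. A second deposited table holds log2 fold changes and adjusted p-values of the authors' own comparisons and was not used.

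Of 6306434 lines, 69 were malformed and 289260 had no library, among them 36 passing lines of the members. Passing mRNA-class reads were counted per gene and transcript. Genes with at least 30 reads were tested with limma-voom (limma 3.58.1, R 4.3.3; 0.5 reads added) over all 12 libraries. Scaling factors were trimmed means of M-values (30% of ratios and 5% of levels trimmed), computed over all genes with reads. Benjamini-Hochberg adjusted p of at most 0.05 was a call. Single values were compared by exact permutation tests (scipy). The fit was tested on simulated data. Where no library of a day exceeded 3 reads, folds used 3 reads per library as the level of that day. Reads were placed on the genome with GENCODE vM21, whose coordinates were the same for the 8 transcripts checked. A read was called inside an exon of the other strand with at most 15 bases outside it. Ends within 15 bases of each other formed 1 site, given where it held at least 10 reads.

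The 8 members, the lists and the tests were chosen with earlier results of these data known. The genes named were the members, their transcripts with at least 30 reads, the 5 genes most correlated with the members' sum, and from each list the called genes with the highest D6 levels. Rarg, Rbp4, Crabp2, Cyp26b1, Ezh2, Evx1, Hoxb6 and Hoxb9 were named after their values were seen. Part of the list of the cluster's other genes and flanks is not reported here. The analyses of shares, read ends and antisense exons were added after seeing the data. Alternatives covered scaling, filters, mapping quality, barcode confidence, depth, repeated reads, the replicate block and each library left out.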

Additional observations from a re-analysis of the deposited data

Results flagged for a closer look

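Gm28308-201, a protein-coding contig that is not a listed Hoxa gene, carried a signal in reads outside the comparisons: 145 reads, none at D0 or D2, 54 at D4 and 91 at D6. Its D4 libraries held 10, 22 and 22 reads and its D6 libraries 42, 20 and 29. In CPM these were 40.8, 51.6 and 51 at D4 and 156, 41.9 and 78.5 at D6, so the days overlapped. The D6 mean of 92.1 CPM was 60.2 CPM without D6 replicate 1, beside a D4 mean of 47.8 CPM. All 145 reads had a mapping quality under 10, and all lay inside the Hoxaas3 exon on the other strand. The farthest read ended at base 304 of a transcript of 752 bases whose first exon, shared with Hoxa3-203, is 300 bases long. Without strand, these reads cannot be assigned to Gm28308, to Hoxa3-203 or to Hoxaas3. The days have 3 libraries each, too few for the check for single outlying libraries.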

How the results depend on the processing

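Members called against D0 were 4 at D2, 5 at D4 and 5 at D6. At D2 the count fell to 2 when every library was thinned to the smallest one, which leaves fewer reads. The D4 count fell to 4 with limma-trend, mapping quality of at least 10, barcode confidence of at least 0.9, thinning, without reads inside exons of the other strand, and without D0 replicate 2, D4 replicate 3, D6 replicate 2 or D6 replicate 3. The D6 count fell to 4 with mapping quality of at least 10, thinning, without the other-strand reads, and without D6 replicate 2 or D6 replicate 3. From D2 to D4 the count of 2 fell to 1 with thinning and was 1 to 2 when single libraries were left out. From D4 to D6 the count of 4 became 0 with limma-trend on log2(CPM + 1), 1 with thinning, 2 with mapping quality of at least 10, 2 without reads inside exons of the other strand, and 1 to 4 when single libraries were left out (1 without D4 replicate 2; 2 without D4 replicate 1, D6 replicate 2 or D6 replicate 3). Apart from thinning and the fewer reads of Hoxa7, the cause was not tested. The Hoxa2 change from D4 to D6 (-0.04) turned to 0.07 with scaling by library totals and to 0.02 with mapping quality of at least 10, and ranged from -0.27 to 0.01 (without D4 replicate 1) when single libraries were left out. The Hoxa7 change from D0 to D2, both without reads, was 1.39 ± 0.89 (SE, limma-voom adjusted p = 0.363) and 0.00 with limma-trend, so its size comes from no read. Leaving out single libraries moved the Hoxa4 tail difference between -12.4 and 4.88 nt. Hoxa7 was tested in 19 of 24 settings, since the others left it under 30 reads. Of 599 alternative fold changes and tail differences, 559 kept their direction and side of the threshold, 35 were no longer called and 5 turned. Of 138 alternative counts, 101 equalled the reported count. The median log2 fold change of all tested genes from D0 to D6 was 0.26 with scaling by library totals, against 0.02 with trimmed-mean scaling. Trimmed-mean factors from the tested genes alone, added after seeing the data, gave 3 members from D4 to D6.

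Equal replicate numbers did not mark related libraries: 4 of 18 correlations of same-numbered libraries were over 0.1 (range -0.13 to 0.17). With the replicate block, 4, 5 and 5 members were called against D0 and 2 from D2 to D4. From D4 to D6, 3 were called under the block, with Hoxa4 at 0.66 (limma-voom adjusted p = 0.141). Depth limits mainly D2 and the genes without reads.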
